A study of Mus musculus with 16 samples.

Results

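The genes described here are 46 interferon-stimulated genes and interferon-inducible GTPases, chosen by a list of gene symbols. All 46 were matched to an identifier in a table of 55414 gene identifiers, measured in 16 bulk RNA libraries. Of these genes, 42 averaged 10 or more counts per library, as did 18878 identifiers in all, and they alone were tested. The other 4 (Ifit3b, Mx1, Oas1a and Ifi44) lay below that minimum.

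The libraries were made from leukaemia-propagating cells (LPC), sorted from mice with a leukaemia that models pro-B acute lymphoblastic leukaemia (Pro B-ALL) of infants. In the labels every sample has the genotype miR-128a overexpressing Kmt2a-AFF1+, that is, a leukaemia fusion gene together with an excess of the microRNA miR-128a, so no group lacks either. Cells were taken from bone marrow (BM) or from the central nervous system (CNS). From each niche they were sorted into LSK cells (lineage-negative cells that carry Sca1, cKit and IL7R) and LK cells (lineage-negative, Sca1-negative and cKit-positive, called LK/CLP in the labels). This gives 4 groups (BM LSK, CNS LSK, BM LK and CNS LK) of 4 libraries each, and the study compared them by LPC type and by niche. The BM and CNS library with the same LPC type and number share a sample stem in the labels, so LSK 4, for example, names a BM and a CNS library with a common stem. What a stem stands for is not in the labels, nor whether the libraries of a group come from separate animals, and p-values then measure only the spread between these libraries.

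Type I interferons signal through the receptor pair Ifnar1 and Ifnar2 to a complex that includes Stat2 and Irf9, which binds the interferon-stimulated response element (ISRE) and switches on antiviral genes. Interferon gamma acts through Ifngr1 and Ifngr2 on the gamma-activated sequence (GAS), and strongly induces the immunity-related GTPases, the guanylate-binding proteins and the immunoproteasome. Many of these genes keep a basal level without infection, and haematopoietic stem and progenitor cells are known to respond to interferon. Sca1, the surface protein by which LSK cells were separated from LK cells, is encoded by Ly6a, itself an interferon-inducible gene.

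The control sequences of several of these genes are shown because the results turn on genes that were high together in 1 library, CNS LSK 4. Of the genes shown, all but Isg15 and Ifit1 had BM LSK 4 as their second highest library. Promoter windows of 300 bases around the start of a gene were taken from RefSeq (build GRCm38.p6), where 35 of the 46 genes had one. The ISRE core searched was GAAA, any 2 bases and GAAA again, on both strands, and the GAS core was TTCNNNGAA, which reads the same on both strands; matches were allowed to overlap. The ISRE core was present in 17 of the 35 genes (48.6%), against 3.99% of the 27025 genes with a window. The GAS core was present in 10 of the 35 (28.6%), against 9.55% of all genes. The genes were listed as interferon-stimulated, so these shares describe the list and are no result of these libraries. Irf7, Oasl1, Oasl2 and Cmpk2, also highest in CNS LSK 4, held 0 ISRE cores in their windows, which are not shown. Capitals mark ISRE core matches in the windows below, which are written 5′ to 3′ on the strand of the gene. Isg15 (chr4:156200769-156201068, minus strand) held 3 overlapping or adjoining matches, and Ifit1 (chr19:34640639-34640938, plus strand) held 2. Ifih1 (chr2:62646206-62646505, minus strand), Igtp (chr11:58199306-58199605, plus strand) and Irgm2 (chr11:58214727-58215026, plus strand) held 1 each, and the last pair also held 1 GAS core each. The neighbouring GTPase genes 9930111J21Rik1 (chr11:48979332-48979631, minus strand) and 9930111J21Rik2 (chr11:49051193-49051492, minus strand) held 1 and 0.
Isg15: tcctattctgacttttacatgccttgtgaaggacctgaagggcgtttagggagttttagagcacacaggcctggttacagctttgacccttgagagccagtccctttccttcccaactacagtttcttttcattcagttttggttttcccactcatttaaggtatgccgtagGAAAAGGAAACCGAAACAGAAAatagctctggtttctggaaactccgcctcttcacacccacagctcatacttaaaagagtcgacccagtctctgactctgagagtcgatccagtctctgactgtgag
Ifit1: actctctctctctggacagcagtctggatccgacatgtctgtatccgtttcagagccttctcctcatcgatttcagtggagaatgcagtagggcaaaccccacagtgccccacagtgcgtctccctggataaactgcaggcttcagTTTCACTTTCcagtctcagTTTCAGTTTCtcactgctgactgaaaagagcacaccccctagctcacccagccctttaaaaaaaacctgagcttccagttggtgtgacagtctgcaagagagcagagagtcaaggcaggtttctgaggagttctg
Ifih1: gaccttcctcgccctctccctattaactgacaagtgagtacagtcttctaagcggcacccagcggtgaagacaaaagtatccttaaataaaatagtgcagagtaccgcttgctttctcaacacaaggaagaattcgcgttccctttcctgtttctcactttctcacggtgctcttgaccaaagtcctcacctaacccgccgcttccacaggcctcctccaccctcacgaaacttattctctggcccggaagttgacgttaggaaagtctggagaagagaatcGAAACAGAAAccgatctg
Igtp: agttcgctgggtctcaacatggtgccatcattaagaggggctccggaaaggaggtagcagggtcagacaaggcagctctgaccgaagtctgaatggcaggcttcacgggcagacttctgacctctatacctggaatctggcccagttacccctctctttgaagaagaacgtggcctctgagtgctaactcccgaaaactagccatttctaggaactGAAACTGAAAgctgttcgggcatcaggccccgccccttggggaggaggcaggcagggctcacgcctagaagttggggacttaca
Irgm2: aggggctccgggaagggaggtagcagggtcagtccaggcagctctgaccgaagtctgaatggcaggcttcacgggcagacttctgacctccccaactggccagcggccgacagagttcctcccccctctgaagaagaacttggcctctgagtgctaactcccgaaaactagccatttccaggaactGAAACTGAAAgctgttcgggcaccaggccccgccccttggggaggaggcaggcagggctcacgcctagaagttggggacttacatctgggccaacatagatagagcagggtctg
9930111J21Rik1: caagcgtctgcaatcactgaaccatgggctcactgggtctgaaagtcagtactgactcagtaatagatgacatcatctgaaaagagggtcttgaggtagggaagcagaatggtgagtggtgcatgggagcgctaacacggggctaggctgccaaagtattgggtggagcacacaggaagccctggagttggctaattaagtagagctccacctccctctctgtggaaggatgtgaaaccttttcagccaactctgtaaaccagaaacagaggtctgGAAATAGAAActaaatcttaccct
9930111J21Rik2: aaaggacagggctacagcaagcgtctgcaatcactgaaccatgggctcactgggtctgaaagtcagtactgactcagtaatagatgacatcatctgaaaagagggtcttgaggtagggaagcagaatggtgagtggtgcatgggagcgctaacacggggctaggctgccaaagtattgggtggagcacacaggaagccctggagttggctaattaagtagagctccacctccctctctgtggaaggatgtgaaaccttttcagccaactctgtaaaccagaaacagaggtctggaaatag
The windows of the last pair shared an unbroken run of 283 bases, which were bases 1 to 283 of the 9930111J21Rik1 window and 18 to 300 of the 9930111J21Rik2 window. The ISRE core of 9930111J21Rik1 lay at bases 277 to 286, so the other window ends inside the same stretch, and its lack of a match says only that the letters are not in that window. The longest unbroken run shared by the Igtp and Irgm2 windows was 61 bases and starts after the ISRE core. The ISRE core and the bases next to it also read the same in both windows. A match is a description of letters, not a bound site.

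Library totals ran from 19.2 to 29.2 M counts, and identifiers with no gene symbol took 39.0% to 45.3% of a library. Levels are given as counts-per-million values (CPM) of TMM-scaled library sizes. Olfactory and vomeronasal receptor genes, silent in most tissues, were used as a background measure; they summed to 302 to 802 in BM and 381 to 1063 in CNS libraries (CPM of named counts). The pro-B list of 15 genes summed to 466 to 821 CPM over the 16 libraries. The list of 15 neural, glial and meningeal markers, of which Mbp was the highest, summed to 57.7 to 92.8 CPM in BM LSK and 45.2 to 83.5 CPM in CNS LSK. In LK it summed to 64.9 to 77.0 CPM in BM and 55.1 to 77.8 CPM in CNS, so the sums overlapped between niches. Of its 7 tested genes, 5 had a positive CNS-minus-BM log2 change over both LPC types, with a median of 0.15. By edgeR's quasi-likelihood test 1 was higher and 1 lower in CNS at an unadjusted p under 0.05 (6.55% and 2.6% of all identifiers). The list of 14 myeloid markers summed to 4.89 to 7.73 CPM in BM and 6.56 to 11.5 CPM in CNS libraries. Of its 7 tested genes, 6 had a positive CNS-minus-BM log2 change over both LPC types, with a median of 0.55, and 2 were higher in CNS at an unadjusted p under 0.05 (6.55% of all identifiers). Of the 10 tested pro-B genes, 8 had a positive change and 4 were higher at that level. Lists for microglia and brain macrophages (4.63 to 8.19), plasmacytoid dendritic cells (116 to 149), T and NK cells (58.4 to 92.7) and erythroid cells (2.71 to 4.91) had no gene at 0 in all libraries. In sorted bulk samples, fewer cells of a type and less RNA per cell cannot be told apart.

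Per kilobase of exon, the immunoproteasome subunit Psmb8 had the highest mean level of the 46 genes, at 30.9 CPM per kb. It was followed by the membrane protein Bst2 (tetherin, 18.2), the transcription factor Irf1 (12.8), the ubiquitin ligase Dtx3l (12.7), the ubiquitin ligase Trim25 (11.0) and the GTPase Igtp (9.22). The highest OAS gene, Oasl1, had 1.48 CPM per kb and the antiviral GTPase gene Mx2 had 0.136. The background receptor genes had a median of 0.0494 and a 95th percentile of 0.131 CPM per kb. Mx1, Oas1a, Oas3 and Ifi44 did not exceed that percentile, and of these only Oas3 was tested.

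In the stem LSK 4 these genes stood apart from the other libraries, and the main comparisons are therefore given with and without it. The summed level of the 46 genes was 825 CPM in BM LSK 4 and 916 CPM in CNS LSK 4. It lay between 549 and 674 CPM in the other 14 libraries, so both LSK 4 libraries were above every other library, the 8 LK libraries included. Of the 42 tested genes, 32 had their highest level of all 16 libraries in CNS LSK 4, where 7.89% of all tested identifiers did. Another 2, Samd9l and Parp9, were highest in BM LSK 4 (4.94% of all), which gives 34 for either library (12.8%). For 23 of the 42 genes the LSK 4 libraries were the highest 2 of the 16, which was so for 2.47% of all tested identifiers. These values describe 1 stem.

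**Figure D1:**
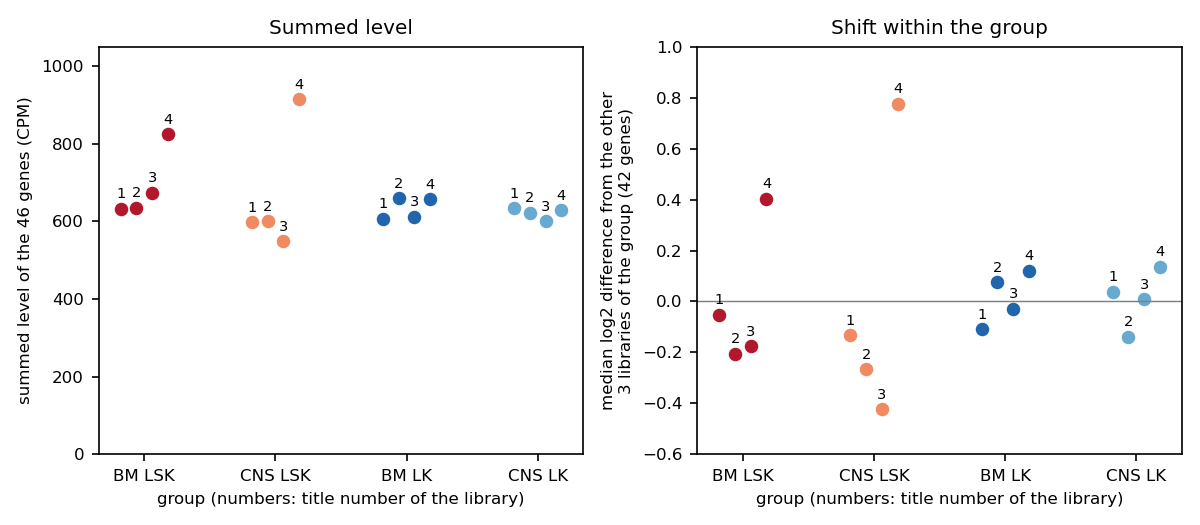
Left, summed level of the 46 genes in CPM in each library, by group. Right, median over the 42 tested genes of the log2 difference between a library and the other 3 of its group. Numbers beside the points are the library numbers. BM LSK 4 (825 CPM) and CNS LSK 4 (916 CPM) lie above the other 14 libraries, which sit between 549 and 674 CPM.

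Within its group, CNS LSK 4 was above the mean log2(CPM + 0.1) of the other 3 libraries for 41 of the 42 genes, with a median log2 deviation of 0.78. On the same scale BM LSK 4 was above that mean for 36 of the 42, with a median of 0.40. The median deviation of all tested identifiers was -0.01 in CNS LSK 4 and 0.01 in BM LSK 4. The ratio of CNS LSK 4 to the mean of the other CNS LSK libraries had a median of 1.65 over the 42 genes and ran from 0.898 for Stat2 to 7.18 for Isg15. It exceeded 1.5 for 27 of the 42 genes and 2 for 18, against 4.18% and 1.07% of all tested identifiers. These 18 were Irf7, Ifit1, Ifit3, Isg15, Mx2, Oasl1, Oasl2, Ifih1, Zbp1, Rsad2, Cmpk2, Rtp4, Ifi27, Gbp2, Igtp, Irgm1, Irgm2 and Iigp1. In BM LSK 4 the median ratio was 1.27, with a range from 0.754 for Oasl2 to 2.62 for Rtp4. The ratio exceeded 1.5 for 10 genes (6.02% of all tested identifiers). It exceeded 2 for 3 of them, Mx2, Rtp4 and Iigp1 (1.49%). The LK 4 libraries had median ratios of 1.09 in BM and 1.09 in CNS.

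The LSK 4 libraries were not extreme in depth, and CNS LSK 4 held 21.3 M counts. Their background receptor sums were 513 and 709 (CPM of named counts), inside the ranges above. Neither was the highest of the 16 libraries in any of the 6 marker lists of other cell types. Myeloid markers summed to 7.51 and 6.70 CPM, microglial and brain macrophage markers to 5.60 and 5.30, and plasmacytoid dendritic cell markers to 123 and 131, for BM LSK 4 and CNS LSK 4 in turn. T and NK cell markers summed to 77.7 and 73.0 CPM, and erythroid markers to 2.74 and 4.12. Neural, glial and meningeal markers summed to 57.7 and 45.2 CPM, the second being the lowest of the 16. The pro-B list summed to 546 CPM in BM LSK 4 and 474 CPM in CNS LSK 4, within 466 to 821 CPM over all libraries. The value of CNS LSK 4 was the lowest of its group. The 21 interferon ligand genes together summed to 1.48 and 2.17 CPM in the LSK 4 libraries, within a range of 0.623 to 2.97 CPM over all libraries. Of the 21, 1 passed the minimum for testing.

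**Figure D2:**
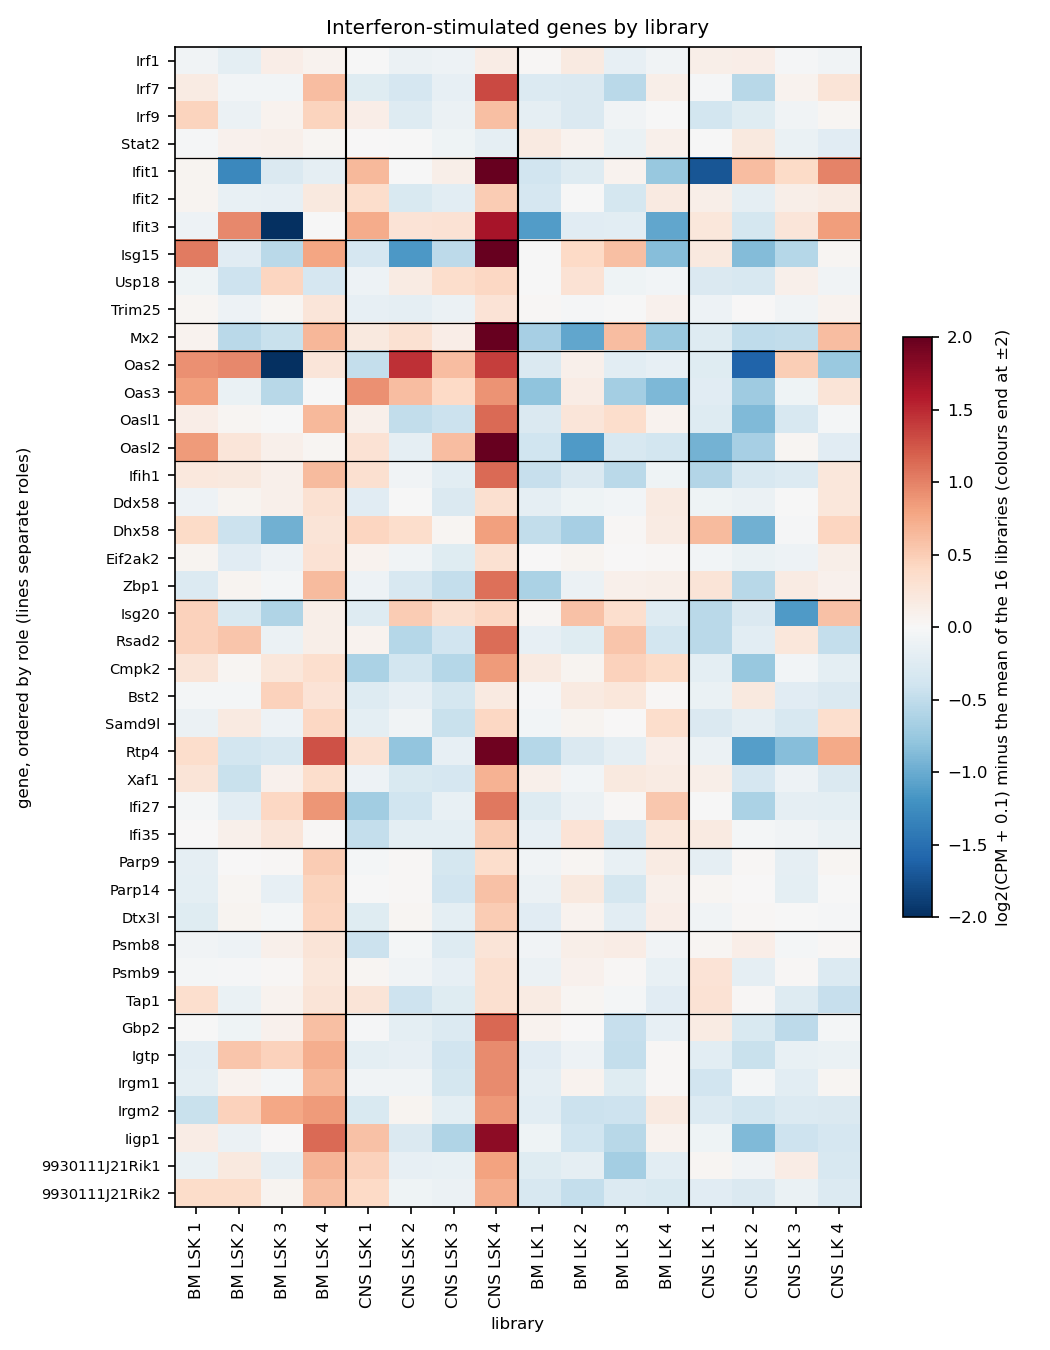
Level of each tested gene (rows, grouped by role) in each of the 16 libraries (columns), as log2(CPM + 0.1) minus the mean of the gene over the 16 libraries. The CNS LSK 4 column is the reddest in most rows and holds the highest value of 32 of the 42 genes, and BM LSK 4 holds that of 2.

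Comparing LSK with LK over both niches asks whether the LPC types differ in these genes. By edgeR's quasi-likelihood test with Benjamini-Hochberg adjustment over all 18878 identifiers, 1 of the 42 genes was called, the GTPase gene 9930111J21Rik2, which was higher in LSK. In this comparison 0.238% of all identifiers were called in either direction and 0.228% as higher in LSK. At an unadjusted p under 0.05, 10 of the 42 were higher in LSK (7.53% of all identifiers) and 0 were lower (4.59%). The LSK-minus-LK log2 change was positive in 39 of the 42, the exceptions being Irf1, Stat2 and Psmb8, with a median of 0.24, against 8830 of the 18878 identifiers and a median of -0.01. Without the LSK 4 libraries, the change was positive in 24 of the 42 (57.1%) and the median was 0.03, against 51.3% and 0.005 over all identifiers. None of the 42 was then called, 6 were higher and 1 (Psmb8) lower at an unadjusted p under 0.05 (8.97% and 4.67% of all identifiers), and 0.413% of all identifiers were called.

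**Figure D3:**
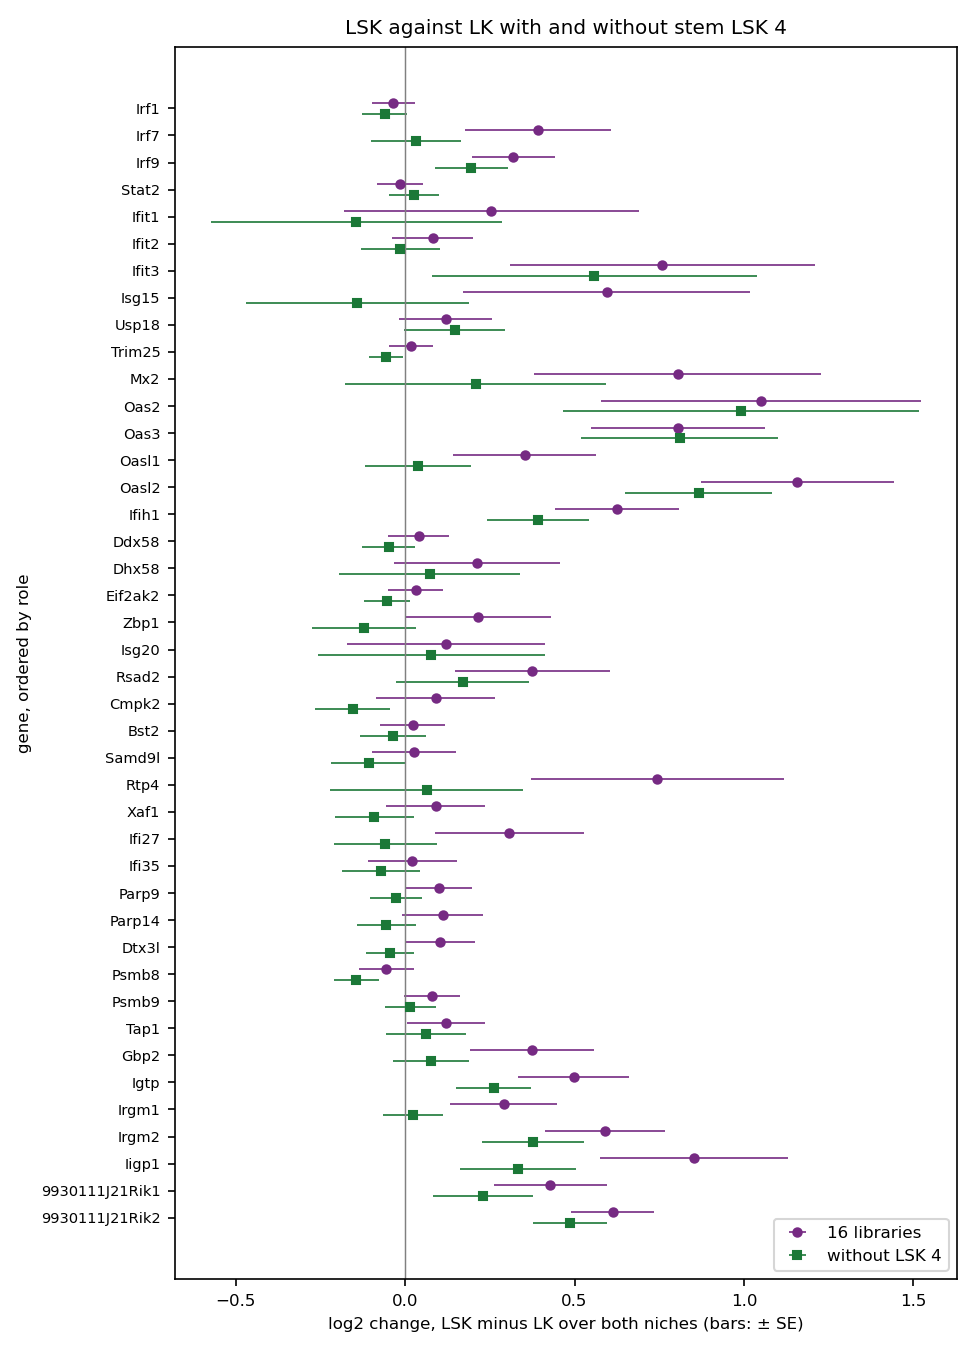
Log2 change of each tested gene between LSK and LK over both niches (LSK minus LK), with its SE, from all 16 libraries (circles) and from the 14 without LSK 4 (squares). The median moves from 0.24 to 0.03, and the 7 interferon-inducible GTPases at the foot stay right of 0 in both.

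The interferon-inducible GTPases, which act on the vacuoles of intracellular parasites, had a positive change in 7 of 7 genes. Their median was 0.50 with all libraries and 0.26 without LSK 4, where again 7 of 7 were positive. 9930111J21Rik2, annotated as an interferon-inducible GTPase, was the gene that was called. 9930111J21Rik2 was at 6.75, 6.78, 5.42 and 7.99 CPM in BM LSK 1 to 4 and at 6.90, 4.90, 4.79 and 8.74 CPM in CNS LSK 1 to 4. 9930111J21Rik2 in LK was at 4.16, 3.72, 4.31 and 4.23 CPM in BM and at 4.43, 4.27, 4.77 and 4.31 CPM in CNS. All 8 LSK values exceeded all 8 LK values, which held for 0.0742% of all identifiers in this direction. The group means were 6.74 ± 1.05 in BM LSK, 6.33 ± 1.88 in CNS LSK, 4.10 ± 0.263 in BM LK and 4.45 ± 0.226 CPM in CNS LK (SD, n = 4 libraries each). The log2 change was 0.61 (SE 0.12, adjusted p = 0.0377). The call was lost without the LSK 4 libraries (log2 change 0.49, adjusted p = 0.0648) and when the BM and CNS counts of a stem were summed (0.61, adjusted p = 0.198). Over 25 alternatives the call held in 12, with a log2 change between 0.49 and 0.67 and an adjusted p from 0.000973 to 0.198. The value is uncertain as to the gene, since 56.1% of the 50-base words of 9930111J21Rik2 also occur in 9930111J21Rik1, and the gene overlaps Olfr56 on the opposite strand. For the partner 9930111J21Rik1 the log2 change was 0.43 (SE 0.17, adjusted p = 0.317), and 0.23 without LSK 4 (adjusted p = 0.531), and 80.4% of its 50-base words occur in 9930111J21Rik2.

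Igtp and Irgm2 are immunity-related GTPases that share a locus on chromosome 11 and a promoter stretch. Igtp was at 15.4, 26.2, 24.5 and 29.4 CPM in BM LSK 1 to 4 and at 15.5, 15.9, 13.6 and 34.3 CPM in CNS LSK 1 to 4. Igtp in LK was at 15.1, 16.6, 12.7 and 18.1 CPM in BM and at 15.4, 13.0, 16.1 and 16.2 CPM in CNS. Igtp was at 13.6 to 15.9 CPM in CNS LSK 1 to 3, inside the LK range, and above every LK value in BM LSK 2 to 4 and CNS LSK 4. Irgm2 was at 7.23, 13.7, 17.0 and 17.9 CPM in BM LSK 1 to 4 and at 7.99, 10.3, 8.69 and 18.2 CPM in CNS LSK 1 to 4. Irgm2 in LK was at 8.53, 7.37, 7.42 and 11.3 CPM in BM and at 8.22, 7.70, 8.21 and 8.06 CPM in CNS. Irgm2 was likewise high in BM LSK 2 to 4 and CNS LSK 4, and low in BM LSK 1. The log2 change was 0.50 for Igtp (SE 0.16, adjusted p = 0.225) and 0.59 for Irgm2 (SE 0.18, adjusted p = 0.188), and neither was called. Without LSK 4 the changes were 0.26 (adjusted p = 0.311) and 0.38 (adjusted p = 0.287). Of the 50-base words of Igtp, 11.8% occur in Irgm2, and the genes overlap on the same strand, so part of the reads may be split between them.

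The other GTPases, named here after their values were seen, did not pass either. Iigp1, an immunity-related GTPase that loads onto parasite vacuoles, was at 14.8 CPM in BM LSK 4 and 23.5 CPM in CNS LSK 4, against 4.39 to 10.1 CPM in the other LSK libraries and 3.60 to 7.06 CPM in LK. Its log2 change was 0.85 (SE 0.28, adjusted p = 0.22), and 0.33 without LSK 4 (SE 0.17, adjusted p = 0.403). Gbp2, a guanylate-binding protein, had a log2 change of 0.37 (SE 0.18, adjusted p = 0.428) and Irgm1, which regulates the other immunity-related GTPases, one of 0.29 (SE 0.16, adjusted p = 0.474). Without LSK 4 these changes were 0.08 for Gbp2 and 0.02 for Irgm1. Gbp2 stood at 19.4 and Irgm1 at 25.1 CPM in CNS LSK 4, the highest value of each.

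The OAS family includes enzymes that make 2′-5′-linked oligoadenylates, which activate RNA decay. Its 4 tested genes had a median change of 0.93 with all libraries and 0.84 without LSK 4, positive in 4 of 4 both times. Without LSK 4 the changes ran from 0.04 to 0.99, and the smallest adjusted p by edgeR's quasi-likelihood test was 0.109. Oasl2 was at 3.56, 2.29, 2.09 and 2.00 CPM in BM LSK 1 to 4 and at 2.39, 1.69, 3.00 and 8.38 CPM in CNS LSK 1 to 4. Oasl2 in LK was at 1.43, 0.823, 1.53 and 1.48 CPM in BM and at 0.961, 1.19, 1.98 and 1.64 CPM in CNS. In BM every LSK value of Oasl2 exceeded every LK value (1.49% of all identifiers in this direction), while in CNS the groups overlapped. With all libraries the log2 change of Oasl2 was 1.16 (SE 0.28, adjusted p = 0.101), and DESeq2 called it (adjusted p = 0.00885). Oas3 was at 1.54, 0.741, 0.534 and 0.825 CPM in BM LSK 1 to 4 and at 1.65, 1.32, 1.12 and 1.63 CPM in CNS LSK 1 to 4. Oas3 in LK was at 0.430, 0.930, 0.479 and 0.399 CPM in BM and at 0.694, 0.466, 0.774 and 1.00 CPM in CNS. In CNS every LSK value of Oas3 exceeded every LK value (2.37% of all identifiers), and the log2 change over both niches was 0.81 (SE 0.26, adjusted p = 0.207). Oas3 lies at the level of the background receptor genes, whose sum ran from 709 to 1063 in CNS LSK and from 381 to 911 in CNS LK. With a background covariate in the fit, 0 of the 42 genes were called within CNS (0% of all identifiers). As 0 were called without it too, these counts cannot tell whether background matters for Oas3. Whether background makes up the Oas3 counts was not tested. Oasl1 was at 4.04, 3.74, 3.65 and 5.78 CPM in BM LSK 1 to 4 and at 3.95, 2.57, 2.69 and 8.11 CPM in CNS LSK 1 to 4. Oasl1 in LK was at 2.97, 4.33, 4.69 and 3.83 CPM in BM and at 3.04, 1.95, 2.92 and 3.58 CPM in CNS. Oasl1 was highest in CNS LSK 4 and second highest in BM LSK 4, and its other LSK values overlapped those of LK. Oas2 had a log2 change of 1.05 (SE 0.47, adjusted p = 0.389) at 0 to 1.44 CPM.

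**Figure D4:**
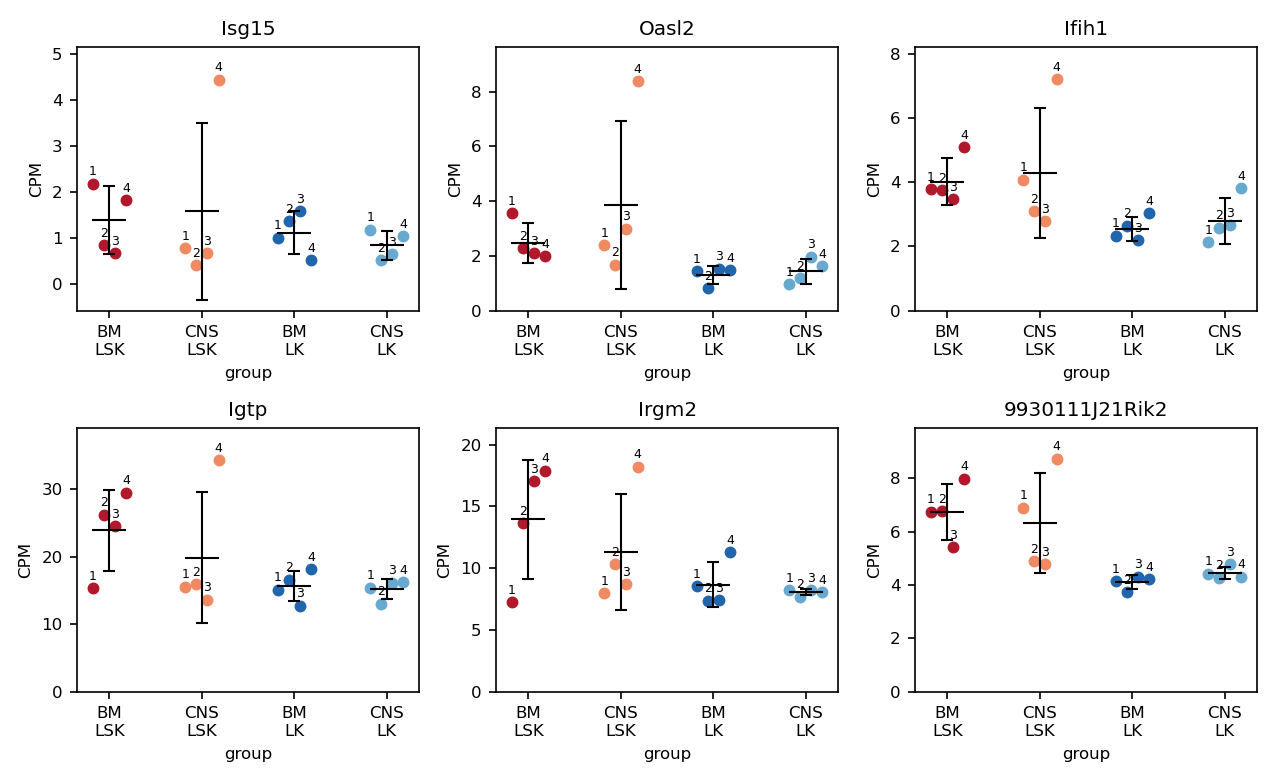
CPM of 6 genes in each library by group; points are libraries with their number, the bar is the group mean and the whiskers are the SD (n = 4). 9930111J21Rik2 separates LSK from LK in both niches, while for Isg15 and Igtp the CNS LSK mean is set by library 4 (4.44 and 34.3 CPM).

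The sensors detect viral nucleic acid. Their 5 tested genes had a median change of 0.21, positive in 5 of 5, and of -0.05 without LSK 4, positive in 2 of 5. Ifih1 (MDA5), the cytosolic receptor for long double-stranded RNA, had the smallest p of the role. Ifih1 was at 3.77, 3.74, 3.47 and 5.08 CPM in BM LSK 1 to 4 and at 4.08, 3.09, 2.78 and 7.20 CPM in CNS LSK 1 to 4. Ifih1 in LK was at 2.33, 2.65, 2.20 and 3.03 CPM in BM and at 2.13, 2.58, 2.67 and 3.81 CPM in CNS. In BM the LSK and LK values of Ifih1 did not overlap, and in CNS the LK 4 value lay above LSK 2 and LSK 3. Its log2 change was 0.63 (SE 0.18, adjusted p = 0.182), and 0.39 without LSK 4 (SE 0.15, adjusted p = 0.266). Ddx58 was at 19.6, 21.6, 22.3 and 25.8 CPM in BM LSK 1 to 4 and at 17.8, 20.7, 17.0 and 26.0 CPM in CNS LSK 1 to 4. Ddx58 in LK was at 18.5, 19.6, 20.1 and 23.7 CPM in BM and at 19.6, 19.2, 20.7 and 24.5 CPM in CNS. Ddx58 (RIG-I), which recognises RNA with a 5′ triphosphate, was highest in the 4 libraries numbered 4, LK included, with values from 23.7 to 26.0 CPM there. Dhx58 was at 2.18, 1.20, 0.800 and 2.00 CPM in BM LSK 1 to 4 and at 2.26, 2.13, 1.70 and 2.99 CPM in CNS LSK 1 to 4. Dhx58 in LK was at 1.15, 1.00, 1.68 and 1.87 CPM in BM and at 2.61, 0.804, 1.63 and 2.27 CPM in CNS. Dhx58 (LGP2), a regulator of both receptors, peaked in CNS LSK 4, and its groups overlapped throughout. Eif2ak2 (PKR) and Zbp1, sensors that halt translation or start cell death, were also highest in CNS LSK 4, at 24.0 and 9.01 CPM.

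The transcription factors had a median change of 0.15, and of 0.03 without LSK 4. Irf9 was at 11.7, 7.87, 9.03 and 11.7 CPM in BM LSK 1 to 4 and at 9.33, 7.10, 7.83 and 13.0 CPM in CNS LSK 1 to 4. Irf9 in LK was at 7.56, 6.98, 8.09 and 8.54 CPM in BM and at 6.62, 7.19, 8.13 and 8.79 CPM in CNS. Irf9, the DNA-binding part of the type I interferon complex, was highest in CNS LSK 4, and BM LSK 1 and BM LSK 4 came next. Its log2 change was 0.32 (SE 0.12, adjusted p = 0.3), and 0.20 without LSK 4 (SE 0.11, adjusted p = 0.441). Irf1 was at 48.1, 44.2, 55.4 and 53.2 CPM in BM LSK 1 to 4 and at 50.5, 46.6, 47.0 and 56.2 CPM in CNS LSK 1 to 4. Irf1 in LK was at 51.7, 57.1, 45.4 and 48.3 CPM in BM and at 55.0, 55.8, 49.9 and 48.0 CPM in CNS. Irf1, an activator downstream of interferon gamma, stayed within 44.2 to 57.1 CPM, and its highest library was BM LK 2. Stat2 was at 17.4, 18.8, 18.9 and 18.2 CPM in BM LSK 1 to 4 and at 17.8, 17.6, 16.7 and 15.6 CPM in CNS LSK 1 to 4. Stat2 in LK was at 20.0, 18.5, 16.1 and 18.9 CPM in BM and at 17.6, 20.3, 16.1 and 15.0 CPM in CNS. Stat2, the partner of Irf9 in that complex, was lower in CNS LSK 4 than in 14 of the other libraries. Irf7, which amplifies interferon production, was at 14.0 CPM in CNS LSK 4 and 8.64 CPM in BM LSK 4, against 3.77 to 6.72 CPM elsewhere.

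Isg15, a ubiquitin-like protein that is joined to other proteins, belongs with its protease Usp18 and the ligase Trim25 to a role with a median change of 0.12, and of -0.06 without LSK 4. Isg15 was at 2.18, 0.847, 0.667 and 1.82 CPM in BM LSK 1 to 4 and at 0.781, 0.401, 0.672 and 4.44 CPM in CNS LSK 1 to 4. Isg15 in LK was at 1.00, 1.36, 1.58 and 0.518 CPM in BM and at 1.17, 0.508, 0.645 and 1.04 CPM in CNS. Its 4.44 CPM in CNS LSK 4 is 7.18 times the mean of the other CNS LSK libraries. The log2 change was 0.59 (SE 0.42, adjusted p = 0.608) with all libraries and -0.14 without LSK 4, so the direction rested on that stem. Trim25 was at 64.4, 58.7, 64.7 and 74.6 CPM in BM LSK 1 to 4 and at 56.0, 55.7, 58.1 and 76.3 CPM in CNS LSK 1 to 4. Trim25 in LK was at 63.8, 61.6, 62.3 and 66.8 CPM in BM and at 58.8, 63.1, 59.6 and 65.9 CPM in CNS. Trim25 was highest in CNS LSK 4 and BM LSK 4, and its other LSK values lay inside or under the LK range.

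Among the IFIT proteins, which bind viral RNA, the 3 tested genes had a median change of 0.25, and of -0.02 without LSK 4. Ifit2 was at 10.6, 9.18, 9.12 and 11.6 CPM in BM LSK 1 to 4 and at 13.0, 8.23, 8.82 and 14.6 CPM in CNS LSK 1 to 4. Ifit2 in LK was at 8.10, 10.1, 7.95 and 11.6 CPM in BM and at 11.1, 9.01, 11.0 and 11.5 CPM in CNS. Ifit2, the most abundant of them by count, was highest in CNS LSK 4, and its groups overlapped. Ifit1 was at 0.425, 0.106, 0.311 and 0.347 CPM in BM LSK 1 to 4 and at 0.695, 0.401, 0.448 and 1.90 CPM in CNS LSK 1 to 4. Ifit1 in LK was at 0.287, 0.322, 0.431 and 0.199 CPM in BM and at 0.0534, 0.677, 0.559 and 0.903 CPM in CNS. Ifit1 reached 1.90 CPM in CNS LSK 4 and stayed at or under 0.903 CPM elsewhere. Ifit3 was at 0.319, 0.777, 0 and 0.347 CPM in BM LSK 1 to 4 and at 0.651, 0.441, 0.448 and 1.31 CPM in CNS LSK 1 to 4. Ifit3 in LK was at 0.108, 0.286, 0.287 and 0.120 CPM in BM and at 0.427, 0.254, 0.430 and 0.702 CPM in CNS. Ifit3 reached 1.31 CPM in CNS LSK 4 and was at 0 in BM LSK 3, and 51.2% of its 50-base words occur in Ifit3b. Mx2 was at 0.425, 0.247, 0.267 and 0.695 CPM in BM LSK 1 to 4 and at 0.478, 0.522, 0.448 and 2.04 CPM in CNS LSK 1 to 4. Mx2 in LK was at 0.215, 0.143, 0.671 and 0.199 CPM in BM and at 0.320, 0.254, 0.258 and 0.669 CPM in CNS. Mx2, an antiviral dynamin-like GTPase, was at 2.04 CPM in CNS LSK 4, and no other library passed 0.695 CPM.

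The other antiviral effectors had a median change of 0.09 over 9 tested genes, positive in 9 of 9, and of -0.06 without LSK 4, positive in 3 of 9. Rtp4 was at 2.60, 1.55, 1.60 and 5.04 CPM in BM LSK 1 to 4 and at 2.52, 1.12, 1.79 and 8.11 CPM in CNS LSK 1 to 4. Rtp4 in LK was at 1.33, 1.65, 1.77 and 2.23 CPM in BM and at 1.87, 0.889, 1.07 and 3.48 CPM in CNS. Rtp4, an interferon-inducible inhibitor of viral replication, was high in both LSK 4 libraries and, less so, in CNS LK 4. Its log2 change was 0.74 (SE 0.37, adjusted p = 0.442), and 0.06 without LSK 4 (SE 0.29, adjusted p = 0.952). Bst2 was at 15.7, 15.8, 22.4 and 19.5 CPM in BM LSK 1 to 4 and at 13.6, 14.4, 12.6 and 18.5 CPM in CNS LSK 1 to 4. Bst2 in LK was at 15.9, 18.3, 19.0 and 16.4 CPM in BM and at 14.8, 18.5, 13.9 and 13.3 CPM in CNS. Bst2, which tethers budding virus particles to the cell, was highest in BM LSK 3, and no LSK value lay outside the LK range except in BM LSK 3, BM LSK 4 and CNS LSK 3. The remaining genes of this role (Isg20, Rsad2, Xaf1, Ifi27, Ifi35 and Samd9l) were not called, and Cmpk2 is described with the niche. Of the 6, all but Isg20 and Samd9l were highest in CNS LSK 4.

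Parp9, Parp14 and Dtx3l (ADP-ribosyltransferases and the ligase partner of Parp9) had a median change of 0.10, positive in 3 of 3, and of -0.04 without LSK 4, positive in 0 of 3. Dtx3l was at 61.0, 74.3, 70.0 and 97.0 CPM in BM LSK 1 to 4 and at 60.6, 73.5, 62.9 and 103 CPM in CNS LSK 1 to 4. Dtx3l in LK was at 61.1, 75.6, 62.4 and 78.5 CPM in BM and at 68.3, 72.8, 71.8 and 70.5 CPM in CNS. Dtx3l was at 97.0 and 103 CPM in the LSK 4 libraries and at or under 78.5 CPM in every other. Its log2 change was 0.10 (SE 0.10, adjusted p = 0.741), and -0.04 without LSK 4. Parp9 was at 19.8, 22.4, 22.6 and 31.8 CPM in BM LSK 1 to 4 and at 21.6, 22.8, 17.4 and 28.4 CPM in CNS LSK 1 to 4. Parp9 in LK was at 21.4, 22.9, 20.2 and 24.9 CPM in BM and at 19.7, 22.8, 19.6 and 22.9 CPM in CNS. Parp9 followed the same order at the top, but with BM LSK 4 first. Parp9 and Dtx3l lie on opposite strands and overlap, so their counts are uncertain where the counting did not use strand.

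The antigen processing genes had a median change of 0.08, and of 0.01 without LSK 4. Psmb8 was at 99.2, 96.3, 111 and 124 CPM in BM LSK 1 to 4 and at 77.1, 101, 86.3 and 124 CPM in CNS LSK 1 to 4. Psmb8 in LK was at 98.3, 112, 115 and 98.4 CPM in BM and at 106, 114, 101 and 106 CPM in CNS. Psmb8 was highest in both LSK 4 libraries, yet the other LSK values in CNS lay at or under 101 CPM and partly beneath the LK range. Tap1 was at 44.9, 32.5, 37.4 and 42.7 CPM in BM LSK 1 to 4 and at 42.8, 26.8, 30.3 and 44.5 CPM in CNS LSK 1 to 4. Tap1 in LK was at 39.9, 36.6, 34.9 and 30.5 CPM in BM and at 43.8, 36.2, 29.8 and 26.0 CPM in CNS. Tap1, a subunit of the peptide transporter into the endoplasmic reticulum, was highest in BM LSK 1, with CNS LSK 4 next. Psmb9, a second immunoproteasome subunit, was highest in CNS LSK 4 at 33.0 CPM.

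Within BM alone, 0 of the 42 genes were called by edgeR's quasi-likelihood test (0% of all identifiers) and 0 by DESeq2, which called 39 of all identifiers. At an unadjusted p under 0.05 by edgeR, 7 of the 42 were higher in LSK (3.89% of all identifiers). Within CNS, 0 of the 42 were called by edgeR (0% of all identifiers) and 0 by DESeq2 (0.0318%). There 6 of the 42 were higher at an unadjusted p under 0.05 by edgeR (4.25%). The median change was 0.14 in BM and 0.35 in CNS, and without LSK 4 it was 0.05 in BM and -0.01 in CNS. For the difference between the niches in the LSK-LK change (the interaction), 0 of the 42 were called by either tool, and 0% of all identifiers were. By edgeR, 0 of the 42 had an unadjusted p under 0.05 (1.49% of all identifiers), so a difference between the niches was not shown. Without LSK 4 the median of this difference moved from 0.01 to -0.11, with 14 of 42 positive (51.1% of all identifiers). Then 0 of the 42 were higher and 1 (Igtp) lower at an unadjusted p under 0.05 (1.23% and 0.699% of all identifiers).

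Comparing CNS with BM asks whether the niche goes with these genes, and 0 of the 42 were called over both LPC types by edgeR's quasi-likelihood test with Benjamini-Hochberg adjustment or by DESeq2. Of all identifiers, 0% were called by edgeR and 0.212% by DESeq2, and 9.15% had an unadjusted p under 0.05 by edgeR. At that level 2 of the 42 were higher in CNS (Ifit1 and Ifit3; 6.55% of all identifiers) and 2 lower (Cmpk2 and Bst2; 2.6%). The median CNS-minus-BM change was -0.00, with 21 of 42 positive (50% of all identifiers). Without LSK 4 the median was -0.05 with 11 of 42 positive (51.0% of all identifiers). Then 0 of the 42 were higher and 5 lower at an unadjusted p under 0.05 (6.7% and 2.29% of all identifiers).

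Ifit1 and Ifit3, both under 2 CPM in every library, had CNS-minus-BM log2 changes of 1.21 (SE 0.43, adjusted p = 0.408) and 1.06 (SE 0.45, adjusted p = 0.493). In 7 of 8 stems Ifit1 was higher in CNS than in BM, and Ifit3 was in 6 of 8. The counts by stem here and below compare libraries of a shared stem, which were not taken as pairs. For 6 or 7 of 8 stems, the share over all identifiers is not given. The background receptor sum was also higher in CNS, with a median of 799 against 473 in BM. With a background covariate in the fit, 0 of the 42 genes were called over both LPC types (0% of all identifiers). As 0 were called without it too, these counts cannot tell whether background matters for Ifit1 and Ifit3. Whether background makes up the counts of these low genes was not tested. The myeloid marker list summed to 6.56 to 11.5 CPM in CNS against 4.89 to 7.73 CPM in BM, overlapping ranges, and its part was not tested. Bst2 had a change of -0.26 (SE 0.10, adjusted p = 0.433) and was lower in CNS in 7 of 8 stems.

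Cmpk2, a mitochondrial nucleotide kinase, is named here after its values were seen. Cmpk2 was at 10.4, 8.86, 10.1 and 11.0 CPM in BM LSK 1 to 4 and at 5.51, 6.66, 5.82 and 15.6 CPM in CNS LSK 1 to 4. Cmpk2 in LK was at 9.82, 8.98, 11.9 and 11.3 CPM in BM and at 7.52, 5.08, 8.34 and 7.52 CPM in CNS. CNS was below BM in 7 of 8 stems, LSK 4 being the exception. In LK all 4 CNS values were beneath all 4 BM values, which held for 0.81% of all identifiers in this direction, and in LSK the CNS values of stems 1 to 3 were beneath every BM value. The log2 change was -0.41 (SE 0.18, adjusted p = 0.493), and -0.62 without LSK 4 (SE 0.11, adjusted p = 0.196). Samd9l, a translation inhibitor named here after its values were seen, was the 1 gene of the 42 that was lower in CNS in all 8 stems, and 1.45% of all identifiers were.

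**Figure D5:**
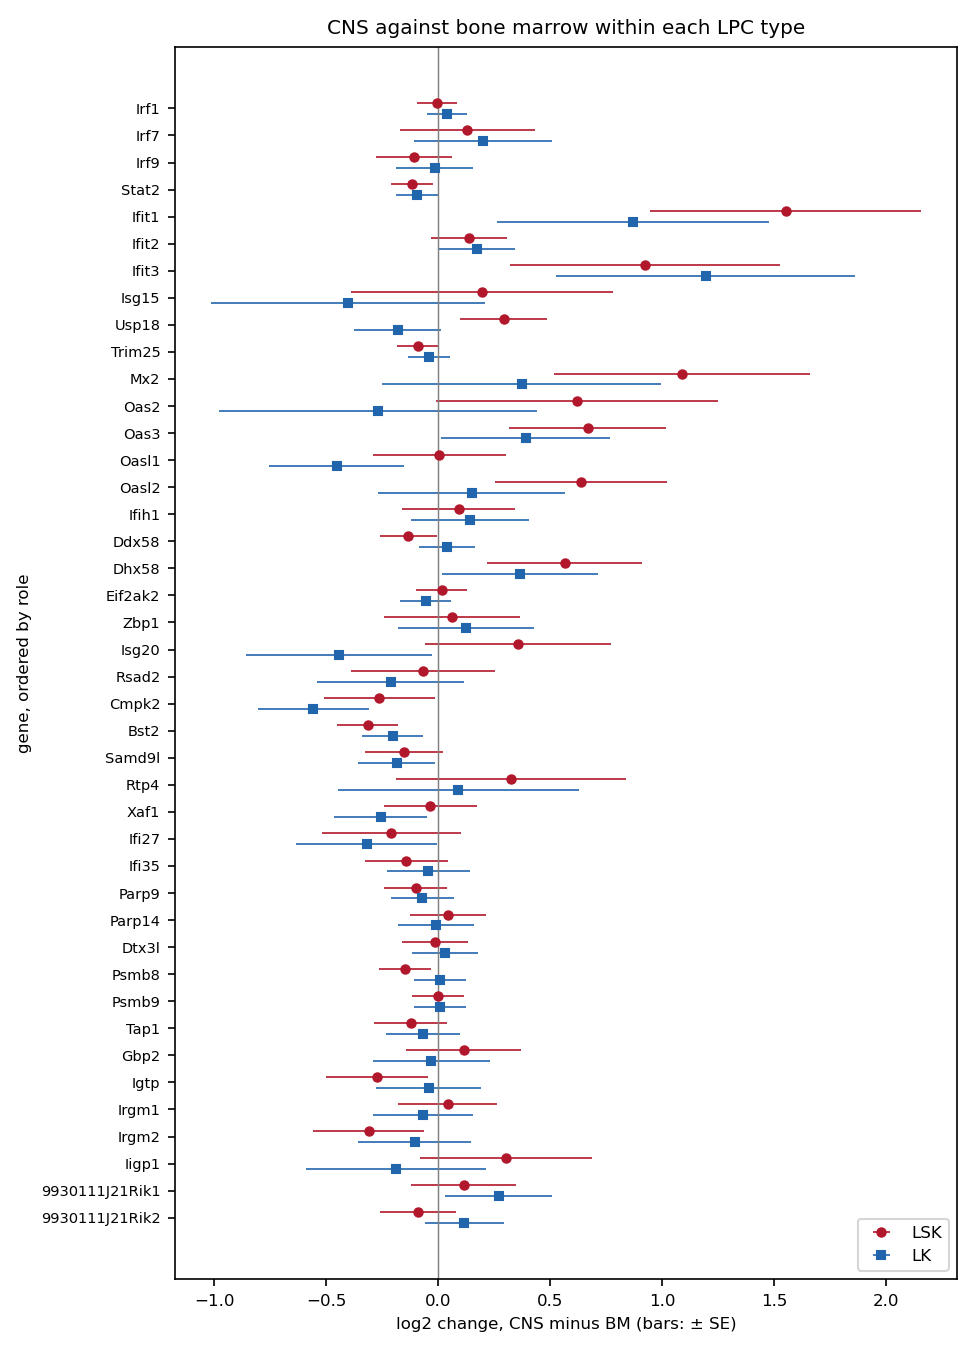
Log2 change of each tested gene between CNS and BM (CNS minus BM) within LSK (circles) and within LK (squares), with its SE. The medians are 0.01 in LSK and -0.04 in LK, and 0 of the 42 genes were called in either.

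Within LSK the median CNS-minus-BM change was 0.01 with all libraries and -0.26 without CNS LSK 4. Without both LSK 4 libraries it was -0.13, with 12 of 42 positive (52.5% of all identifiers). Then 0 of the 42 were higher and 5 lower at an unadjusted p under 0.05 (3.9% and 1.9% of all identifiers). Within LK the median was -0.04. With all libraries, 0 of the 42 genes were called in LSK or in LK by edgeR or by DESeq2, and 0% of all identifiers were called by either tool. With all libraries, 2 had an unadjusted p under 0.05 in LSK (1 higher, Ifit1, and 1 lower, Bst2; 3.82% and 1.92% of all identifiers) and 1 in LK (Cmpk2, lower; 1.13%).

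The rest of the pathway was read from the same fits. Ly6a, which encodes the sort antigen Sca1, was at 0.940 to 2.26 CPM in the LSK libraries and 0.466 to 0.903 CPM in LK, with no overlap between the LPC types. Its LSK-minus-LK log2 change was 1.30 (SE 0.21, adjusted p = 0.0117), and 1.23 without LSK 4 (adjusted p = 0.0281). Because Ly6a encodes the antigen of the gate, this difference checks the sort and is no independent result. The receptor genes Ifnar1, Ifnar2, Ifngr1 and Ifngr2 were not called, with log2 changes of -0.06, 0.10, 0.20 and 0.09 (SE 0.06, 0.08, 0.12 and 0.11).

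Among 78 further interferon-stimulated genes, 62 were tested and 1, Ly6a, was called between LSK and LK (0.238% of all identifiers). At an unadjusted p under 0.05, 12 of the 62 were higher in LSK (7.53%), and without LSK 4 there were 5 higher and 4 lower (8.97% and 4.67%). Their median change was 0.10 with all libraries and -0.03 without LSK 4. Their summed level was 1958 CPM in BM LSK 4 and 2129 CPM in CNS LSK 4, the highest of a range that starts at 1430 CPM. The 14 class I antigen presentation genes, which include the MHC heavy chains and B2m, summed to 899 and 962 CPM in those libraries against a lowest value of 564 CPM. None of the 14 was called by edgeR, with 4 higher at an unadjusted p under 0.05 (7.53% of all identifiers), and without LSK 4 that number was 1 (8.97%). Of 17 tested receptor and signalling genes, 0 were called, with 1 higher at an unadjusted p under 0.05 (7.53%). Of 11 tested sensors and adaptors upstream of interferon, 0 were called, with 0 at an unadjusted p under 0.05 in either direction.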

How the data were processed

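Sorted leukaemia cells gave 16 bulk libraries, made with a low-input stranded total RNA kit per the labels' protocols. The deposited table holds whole-number counts per Ensembl gene; its name calls them normalised, but totals differed between libraries (size factors 0.804 to 1.30), so they were treated as raw counts. The submitters' processing notes name GRCm39 and DESeq2 without their roles; the aligner and counter, and any use of strand, are not given in the sources used here. Symbols came from a GENCODE M21 table (52081 of 55414 identifiers matched), exon lengths from the same annotation. Identifiers with no symbol held 41.8% of counts and stayed in library sizes.

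Identifiers averaging 10 or more counts (18878) were fitted in edgeR 4.0.16 (R 4.3.3) with TMM factors and 4 group means; for 7 contrasts edgeR's quasi-likelihood test (two-sided) was adjusted by Benjamini-Hochberg, with 0.05 as the threshold, and the code was tested on simulated data. SE is the log2 change divided by the root of F. DESeq2 1.42.0 and limma 3.58.1 (a dependency of edgeR) were also used. Replicate libraries differed beyond counting noise (chi-square over its degrees of freedom 10.6 to 41.6).

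The genes and lists (pathway lists of ligands, receptors and signalling, upstream sensors, other interferon-stimulated genes and class I presentation; marker lists of 6 cell types and a pro-B list) were chosen with earlier results of these data known. Values in every library are given for genes called in any contrast and, in each of 10 roles, for the gene with the highest mean count and those with the smallest p by LPC type and by niche; 1 further pathway gene is not reported here. Alternatives were other scaling, filters and tools, blocks, summed stems and each library left out. Leaving out both LSK 4 libraries, TMM factors from all identifiers and a background covariate were chosen after seeing the data.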

Additional observations from a re-analysis of the deposited data

Results flagged for a closer look

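In groups of 4 libraries, a library was singled out where its gap to the nearest other, divided by the range of the group, exceeded Dixon's critical value at the 95% level. Of 100 groups examined, 9 held such a library, where chance gives about 1 in 20 (5 of 100). In CNS LSK, library 4 stood apart for the summed level of the 46 genes (916 CPM against 549 to 600 in the other 3). The same library stood apart for Trim25 (76.3 against 55.7 to 58.1 CPM), Isg15 (4.44 against 0.401 to 0.781), Mx2 (2.04 against 0.448 to 0.522) and Igtp (34.3 against 13.6 to 15.9). In BM LK, library 3 stood apart for Mx2 (0.671 against 0.143 to 0.215 CPM). BM LK 2 stood apart for Oasl2 (0.823 against 1.43 to 1.53 CPM) and Oas3 (0.93 against 0.399 to 0.479). In CNS LK, library 4 stood apart for Mx2 (0.669 against 0.254 to 0.32 CPM). Mx2, Oasl2 and Oas3 rest on few counts in these LK libraries.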

How the results depend on the processing

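Between LSK and LK over both niches, the number of the 42 genes called, 1 in the primary analysis, was 5 with no filter on low counts, 2 with DESeq2, and 0 with counts summed per stem, without both LSK 4 libraries, with TMM factors from all identifiers and with the background covariate. Leaving out 1 library at a time gave 0 to 2, with 0 without BM LSK 1, BM LSK 4, CNS LSK 1, BM LK 1, 2 or 4, or CNS LK 1, 2 or 3. Over all identifiers, 45 (0.238%) were called in the primary analysis and 290 of 53366 (0.543%) with no filter. DESeq2 called 222 (1.18%), and TMM factors from all identifiers gave 15 (0.0795%). Summed stems gave 0%, leaving out both LSK 4 libraries 0.413% and the background covariate 0.053%. With 1 library left out at a time the share ran from 0.0795% to 0.726%. Within CNS, no filter gave 2 calls among the 42, against 38 of 53366 identifiers (0.0712%). The median LSK-minus-LK change within CNS, 0.35, was -0.00796 without both LSK 4 libraries and ran from -0.008 (without CNS LSK 4) to 0.435 when single libraries were left out. The median CNS-minus-BM change within LSK, 0.01, ran from -0.258 (without CNS LSK 4) to 0.155 (without BM LSK 4). The LSK-minus-LK change of Isg15, 0.59, ran from -0.0575 (without CNS LSK 4) to 0.757 with single libraries left out and was -0.142 without both LSK 4 libraries; that of Dtx3l, 0.10, was -0.0449 without both. Apart from the libraries left out, the cause of each change was not tested.

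The library numbers were checked for pairing: same-stem libraries correlated at over 0.1 in 6 of 8 stems (median 0.20, lowest -0.02), and 11 of 16 libraries were closest to their own stem, so the numbers were not taken to pair the libraries. With a replicate block on the stem, 0 of the 42 genes were called between niches, against 126 of all identifiers (0.667%). With a replicate block on the title number, 3 were called between LSK and LK (Oasl2, Ifih1 and 9930111J21Rik2), against 162 of all identifiers (0.858%). Genes of few counts, such as Ifit1, Ifit3, Mx2, Oas2 and Oas3, are limited by depth.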
